A study of Mus musculus with 9 samples.

Results

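The insulin-like growth factor (IGF) binding proteins and the Runx and Sin3a regulators were examined in mouse squamous cell carcinoma (SCC) cells that differ in focal adhesion kinase (FAK). The genes were taken by name, as those encoding IGF binding proteins and the transcriptional regulators that have been linked to control of *Igfbp3* by nuclear FAK. Of the 10 names, 9 matched a row of a table of 19044 Ensembl gene identifiers. These were *Igfbp3*, *Igfbp4*, *Igfbp5*, *Igfbp6*, *Igfbp7*, *Runx1*, *Runx2*, *Runx3* and *Sin3a*. *Igfbp2* was not analysed here. Of the 9 genes, 6 passed the low-count filter of edgeR (filterByExpr), and *Igfbp5*, *Igfbp7* and *Runx3* did not.

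RNA-seq libraries came from 3 cell lines with 3 biological replicates each. The SCC cells were derived from chemically induced skin tumours of FVB mice carrying floxed FAK and the K14CreER transgene, in which a keratin promoter of basal keratinocytes drives a tamoxifen-inducible Cre recombinase. FAK was deleted from the excised cells in culture with 4-hydroxytamoxifen to give FAK-/- cells. FAK-WT cells and FAK-kd cells stably express wild-type or kinase-deficient FAK, introduced by retrovirus into a FAK-/- clone and selected with hygromycin. All 3 lines therefore carry the deletion of the endogenous *Ptk2* gene, and an effect of the expressed FAK cannot be told apart from other differences between these 3 cell populations. The p-values below measure the spread between the libraries of each line.

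FAK-WT replicate 1 held 779755 counts, whereas the other 8 libraries held between 25304994 and 37264636. A floor of 3 counts corresponded to 3.78 CPM (read counts scaled to a common library size after TMM normalisation) in FAK-WT replicate 1, and to between 0.0798 and 0.118 CPM in the others. FAK-/- replicate 3 stood apart in base composition: the deviation of its genes from their mean over the 9 libraries had a Spearman correlation of 0.54 with transcript GC content across 12145 genes, and that of the other libraries lay between -0.182 and -0.0337. *Ptk2*, which encodes FAK, had 21.6 ± 1.93 CPM in FAK-/- cells, 215 ± 1.92 CPM in FAK-WT cells and 163 ± 11.5 CPM in FAK-kd cells (SD, n = 3). The lowest level was in the line labelled as FAK-deficient. Between the other lines, for which the labels give no order, it was 1.32-fold higher in FAK-WT-expressing than in FAK-kd cells (adjusted p = 0.00163, edgeR). The 5 epithelial markers with a row summed to at most 1.74 CPM in every library, *Cdh1* had 0 counts in 8 of the 9 libraries, and *Krt5* and *Krt14* had between 0 and 8 counts. The defining keratins of the tissue named in the labels were thus near absent from these cells.

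IGF binding proteins are secreted proteins that hold IGF1 and IGF2 in the extracellular space, set how much ligand reaches the IGF1 receptor, and are released from the ligand when proteases cut them. IGFBP3 is the main carrier of IGFs in serum and can restrain or promote growth, depending on the cell. Runx factors bind DNA together with CBFB and can activate or repress transcription, and SIN3A is a scaffold that brings histone deacetylases to such factors. Nuclear FAK has been reported to bind Runx1 and regulate *Igfbp3*. The comparison of FAK-/-, FAK-WT and FAK-kd cells gives the RNA levels of these genes without FAK, with wild-type FAK and with kinase-deficient FAK, and neither binding nor nuclear localization of FAK was measured in these libraries.

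The 250 bases before the transcription start of *Igfbp3* (RefSeq, GRCm38.p6, chr11:7213924-7214173, minus strand, upstream of the annotated gene) are shown because *Igfbp3* carries the largest change among these genes. Capitals mark the Runx core motif TGTGGT, searched on both strands.
Igfbp3: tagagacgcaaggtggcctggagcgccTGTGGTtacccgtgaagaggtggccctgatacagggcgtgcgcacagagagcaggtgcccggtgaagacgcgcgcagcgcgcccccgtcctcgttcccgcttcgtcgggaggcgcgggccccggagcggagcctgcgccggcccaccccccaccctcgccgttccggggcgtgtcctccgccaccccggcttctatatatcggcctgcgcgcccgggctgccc
The motif begins at position -223 from the start, on the strand of the gene, and is followed by a further T, so that it also matches the longer form TGTGGTT, which contains TGTGGT. Among 32851 RefSeq promoter windows, each reaching from 250 bases before to 50 bases after a start, 16.8% held TGTGGT on either strand and 5.27% held TGTGGTT. No such match was found in the windows of *Igfbp2*, *Igfbp4*, *Igfbp5*, *Igfbp6*, *Igfbp7* or *Sin3a*. A match describes the letters in the window only.

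The windows at the first start of *Runx1*, *Runx2* and *Runx3* each held a pair of matches on the strand opposite to the gene, so that the motif reads ACCACA. The stretches are shown because the pair recurs in the 3 paralogs. They lie at chr16:92826028-92826052 (minus strand), chr17:44814586-44814610 (minus strand) and chr4:135120505-135120529 (plus strand).
Runx1: taaacaACCACAgaACCACAagttg
Runx2: caaacaACCACAgaACCACAagtgc
Runx3: ccctcaACCACAgaACCACAaggcc
The matches of a pair began 8 bases apart in each gene. Of the 25 bases, 22 were identical between *Runx1* and *Runx2*, and 18 were identical in all 3 genes. The pair lay after the start in *Runx1* (bases 29 and 37) and *Runx2* (bases 24 and 32) and before it in *Runx3* (positions -134 and -126). *Runx2* held another match at position -80. No match was found in the windows at the second start of *Runx1* or *Runx3*. How many of all windows hold such a pair was not counted. AP-1 motifs (TGANTCA, with N for any base, either strand) were present in 7.81% of all windows and in 1 window here, the second of *Igfbp2*, at position -39.

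**Figure D1:**
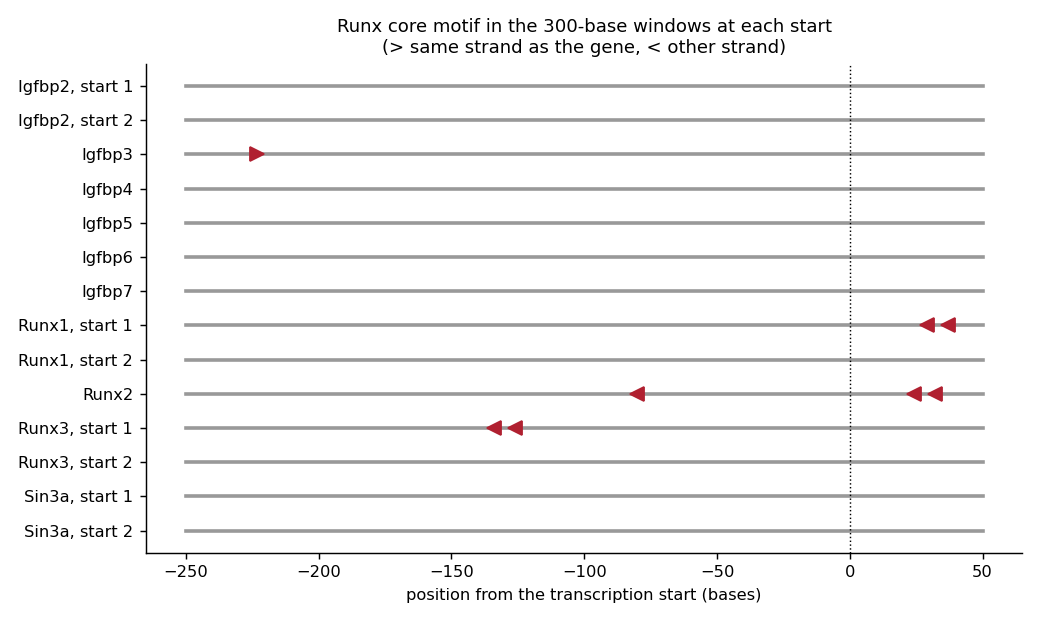
Positions of the Runx core motif (arrowheads, which point along the strand) in the windows from 250 bases before to 50 bases after each RefSeq transcription start, with 1 line for each start; the x axis is the distance from the start in bases. The single *Igfbp3* match lies at position -223, and the closely spaced pairs are seen in *Runx1*, *Runx2* and *Runx3*.

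*Igfbp3* (chromosome 11, 7206086 to 7213923, minus strand) differed between all 3 lines. In FAK-/- replicates 1, 2 and 3 its level was 31, 29.5 and 36.9 CPM, from 1034, 749 and 1154 counts. In FAK-kd replicates 1, 2 and 3 it was 8.72, 9.2 and 8.81 CPM, from 291, 307 and 301 counts. In FAK-WT replicates 1, 2 and 3 it was 1.26, 0.958 and 1.67 CPM, from 1, 36 and 58 counts. Every FAK-/- library lay above every FAK-kd library, and every FAK-kd library above every FAK-WT library. The single count in FAK-WT replicate 1 gave an exact Poisson 95% interval of 0.0319 to 7.01 CPM, whose upper bound still lay below the lowest FAK-kd level, and such intervals cover counting error only.

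The mean level of *Igfbp3* was 32.5 ± 3.93 CPM in FAK-/- cells, 8.91 ± 0.251 CPM in FAK-kd cells and 1.3 ± 0.359 CPM in FAK-WT cells (SD, n = 3). It was 24.8-fold lower in FAK-WT-expressing than in FAK-/- cells (log2 fold change -4.63, SE 0.18, adjusted p = 2.51e-10, edgeR's quasi-likelihood test with Benjamini-Hochberg adjustment over all genes, as for every adjusted p below). It was 6.81-fold lower in FAK-WT-expressing than in FAK-kd cells (log2 fold change -2.77, SE 0.18, adjusted p = 5.05e-08). FAK-kd cells in turn had a 3.65-fold lower level than FAK-/- cells (log2 fold change -1.87, SE 0.13, adjusted p = 3.27e-07). Since these libraries are bulk cultures, fewer cells that express the gene and less RNA per cell cannot be told apart. Without FAK-WT replicate 1, the shallow library, the log2 fold changes of FAK-WT against FAK-/- and FAK-kd cells were -4.63 and -2.77.

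A gene was called past the threshold at an adjusted p of 0.05 or below together with a log2 fold change whose size was 1 or more, in either direction. *Igfbp3* was the only 1 of the 9 genes past it, with a lower level each time. Among all 19044 genes, 3.06% were past the threshold with a lower level in FAK-WT-expressing than in FAK-/- cells, 2.89% with a lower level in FAK-WT-expressing than in FAK-kd cells, and 1.09% with a lower level in FAK-kd than in FAK-/- cells. The 3 comparisons share libraries, so their values are given side by side and are not independent of each other.

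**Figure D2:**
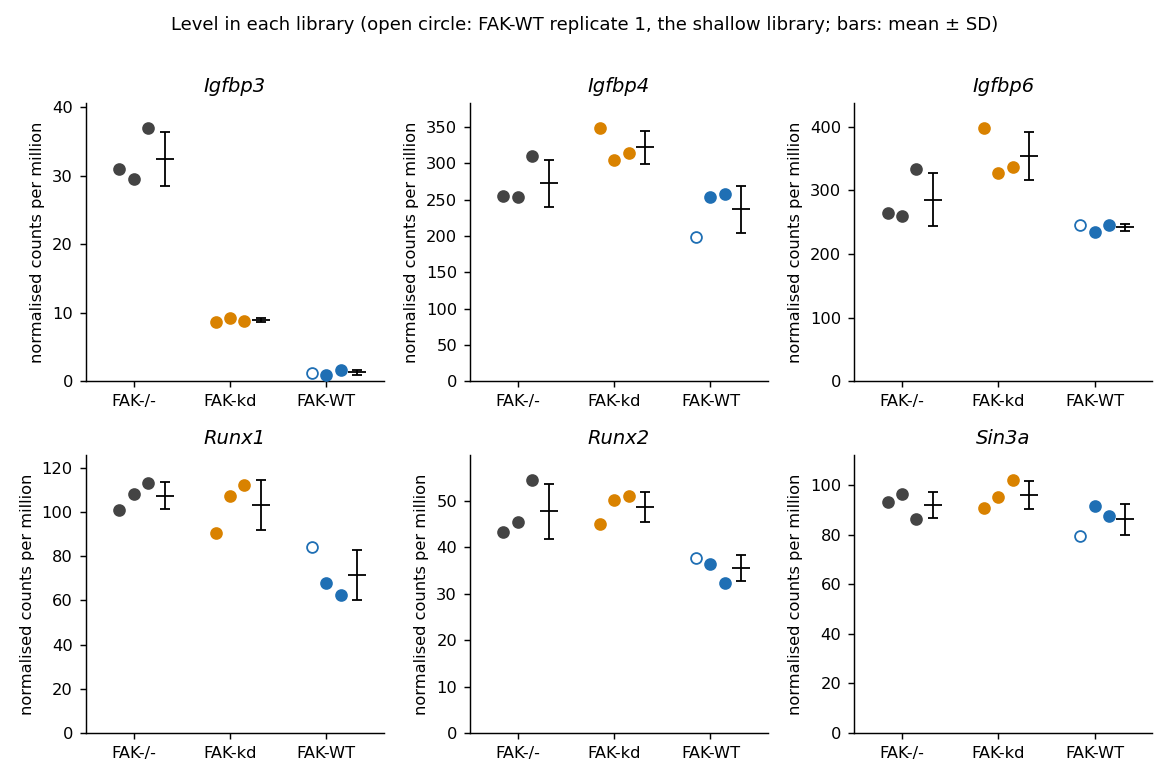
Levels of the 6 measurable genes in each library, in CPM on axes that start at 0, with 3 libraries for each cell line and the mean ± SD beside them. *Igfbp3* forms 3 separate groups near 32.5, 8.91 and 1.3 CPM, whereas *Igfbp4* lies between 199 and 348 CPM and *Igfbp6* between 235 and 397 CPM over the 9 libraries.

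*Igfbp4* and *Igfbp6* were the abundant IGF binding protein transcripts in all 3 lines. *Igfbp4*, whose product binds both IGFs and is cut by the protease PAPP-A, had 255, 253 and 310 CPM in FAK-/- cells. Its levels were 348, 304 and 314 CPM in FAK-kd cells and 199, 253 and 258 CPM in FAK-WT cells. All FAK-WT libraries lay below all FAK-kd libraries, and FAK-/- libraries overlapped with both. *Igfbp4* was 1.33-fold lower in FAK-WT-expressing than in FAK-kd cells (log2 fold change -0.41, SE 0.10, adjusted p = 0.00867), and this adjusted p was 0.0597 without FAK-kd replicate 1. Against FAK-/- cells, the log2 fold change was -0.17 in FAK-WT cells (SE 0.10, adjusted p = 0.289) and 0.24 in FAK-kd cells (SE 0.10, adjusted p = 0.164), neither of which passed.

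*Igfbp6*, whose product prefers IGF2, had 264, 259 and 333 CPM in FAK-/- cells. Its levels were 397, 327 and 337 CPM in FAK-kd cells and 245, 235 and 245 CPM in FAK-WT cells. The FAK-WT libraries lay below those of both other lines, and FAK-/- replicate 3 overlapped with the FAK-kd libraries. However, the 195 counts of FAK-WT replicate 1 gave an exact Poisson 95% interval of 212 to 282 CPM, which reached levels of FAK-/- libraries. *Igfbp6* was 1.46-fold lower in FAK-WT-expressing than in FAK-kd cells (log2 fold change -0.55, SE 0.10, adjusted p = 0.00103). Its log2 fold change of -0.24 in FAK-WT against FAK-/- cells (SE 0.10, adjusted p = 0.119) did not pass, and neither did that of 0.31 in FAK-kd against FAK-/- cells (SE 0.10, adjusted p = 0.0653).

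These FAK-/- comparisons depended on FAK-/- replicate 3, the library that stood apart in GC content and had the highest *Igfbp4* and *Igfbp6* levels of its line. Without it, FAK-kd cells had a higher level than FAK-/- cells of *Igfbp4* (log2 fold change 0.34, adjusted p = 0.00175) and of *Igfbp6* (0.44, adjusted p = 0.000113). With each library corrected for GC content, a choice made after the data were seen, these values were 0.31 (adjusted p = 0.00882) and 0.47 (adjusted p = 0.000391). *Igfbp6* then had a log2 fold change of -0.01 in FAK-WT against FAK-/- cells (adjusted p = 0.99). For *Igfbp3*, leaving out FAK-/- replicate 3 gave log2 fold changes of -4.53 in FAK-WT and -1.76 in FAK-kd against FAK-/- cells.

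*Igfbp5* and *Igfbp7* were at or below the floor. *Igfbp5* had 1 count in FAK-/- replicate 1 and in FAK-WT replicate 2 and 0 in the other 7 libraries. *Igfbp7* had 1 count in FAK-/- replicate 2, 2 in FAK-WT replicate 2, 1 in FAK-kd replicate 2 and 0 in the other 6. No difference was detectable at these counts, and no fold change is given.

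Levels of different genes were compared per kilobase of transcript, by the median length of the annotated coding transcripts. In FAK-/- cells, *Igfbp6* had 256 ± 37.3, *Igfbp4* 119 ± 14.2 and *Igfbp3* 15.7 ± 1.9 CPM per kilobase (SD, n = 3). The order of *Igfbp6* and *Igfbp4* depended on the transcript, as *Igfbp4* had 367 CPM per kilobase by its shortest transcript and 71.2 by its longest, whereas *Igfbp3* was the lowest of the 3 by either. *Igfbp3* made up 3.95% to 4.13% of the summed level per kilobase of the 5 IGF binding protein genes in the FAK-/- libraries. Its share was 0.824% to 1.03% in the FAK-kd libraries and 0.144% to 0.243% in the FAK-WT libraries, so that the ranges did not overlap, and they did not overlap by the shortest or the longest transcripts either. By the median length, *Igfbp4* had a share of 28.2% to 34.2% and *Igfbp6* of 65.1% to 71.6% over all 9 libraries. These shares depended on the transcript. By the shortest transcripts, *Igfbp4* had 54.8% to 61.6% and *Igfbp6* 38.3% to 45.1%, and by the longest, *Igfbp4* had 19% to 23.7% and *Igfbp6* 74.9% to 80.8%.

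Of the Runx factors, *Runx1* and *Runx2* were expressed and both had lower levels in FAK-WT cells. *Runx1*, a regulator of blood and skin stem cells, had 101, 108 and 113 CPM in FAK-/- cells. Its levels were 90.6, 107 and 112 CPM in FAK-kd cells and 84.3, 67.9 and 62.4 CPM in FAK-WT cells. All FAK-WT libraries lay below those of both other lines, which overlapped with each other. However, the 67 counts of FAK-WT replicate 1 gave an exact Poisson 95% interval of 65.4 to 107 CPM, which reached levels of both other lines. *Runx1* was 1.59-fold lower in FAK-WT-expressing than in FAK-/- cells (log2 fold change -0.67, SE 0.10, adjusted p = 0.000224) and 1.53-fold lower than in FAK-kd cells (-0.61, SE 0.10, adjusted p = 0.000457). Without FAK-WT replicate 1 these log2 fold changes were -0.72 and -0.67 (adjusted p = 9.28e-05 and 0.00018). Without FAK-WT replicate 3 they were -0.57 and -0.51 (adjusted p = 0.00487 and 0.0102). FAK-kd and FAK-/- cells differed by a log2 fold change of -0.06 (SE 0.09, adjusted p = 0.79).

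*Runx2*, a regulator of bone formation, had 43.3, 45.5 and 54.5 CPM in FAK-/- cells. Its levels were 45.1, 50.1 and 51.1 CPM in FAK-kd cells and 37.8, 36.4 and 32.3 CPM in FAK-WT cells, again with no overlap of FAK-WT libraries with the others. However, the 30 counts of FAK-WT replicate 1 gave an exact Poisson 95% interval of 25.5 to 53.9 CPM, which reached levels of both other lines. *Runx2* was 1.37-fold lower in FAK-WT-expressing than in FAK-/- cells (log2 fold change -0.46, SE 0.11, adjusted p = 0.00833) and 1.4-fold lower than in FAK-kd cells (-0.49, SE 0.11, adjusted p = 0.00518). Without FAK-WT replicate 1 these log2 fold changes were -0.47 and -0.50 (adjusted p = 0.0081 and 0.00511). Without FAK-WT replicate 3, the adjusted p-values were 0.0988 and 0.0751. The log2 fold change of FAK-kd against FAK-/- cells was 0.03 (SE 0.10, adjusted p = 0.929). *Runx3* had between 0 and 4 counts in every library, and no difference was detectable. Per kilobase of median transcript, FAK-/- cells had 22.7 ± 1.3 CPM of *Runx1* and 20.6 ± 2.55 CPM of *Runx2* (SD, n = 3). By the longest transcripts these levels were 18.3 and 7.39.

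*Sin3a* had 93.2, 96.5 and 86.1 CPM in FAK-/- cells, 90.8, 95.2 and 102 CPM in FAK-kd cells, and 79.3, 91.5 and 87.5 CPM in FAK-WT cells. The libraries of the 3 lines overlapped. Its log2 fold changes were -0.06 in FAK-WT against FAK-/- cells (SE 0.08, adjusted p = 0.617), -0.12 in FAK-WT against FAK-kd cells (SE 0.08, adjusted p = 0.323) and 0.06 in FAK-kd against FAK-/- cells (SE 0.07, adjusted p = 0.666). None of these passed.

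By adjusted p alone, 3 of the 9 genes (*Igfbp3*, *Runx1* and *Runx2*) had lower levels in FAK-WT-expressing than in FAK-/- cells, as did 9.96% of all genes. Lower levels in FAK-WT-expressing than in FAK-kd cells were called for 5 of the 9 (*Igfbp3*, *Igfbp4*, *Igfbp6*, *Runx1* and *Runx2*), against 10.2% of all genes. In FAK-kd against FAK-/- cells, 1 of the 9 (*Igfbp3*) was called lower, against 3.88% of all genes. A higher level was called for 0 of the 9 in each comparison by edgeR, against 8.01%, 7.58% and 3.97% of all genes. In FAK-kd against FAK-/- cells, *Igfbp4* and *Igfbp6* had a higher level at an unadjusted p under 0.05, as did 10.2% of all genes. DESeq2 called 1 of the 9 higher in this comparison (*Igfbp6*, adjusted p = 0.0391), and 707 of all 19018 genes that it tested. In the FAK-WT comparisons, 0 of the 9 were higher at an unadjusted p under 0.05, beside 13.4% and 13% of all genes. By DESeq2 the count was also 0 in both, beside 1446 and 1417 of 19018 genes. Of the 6 genes kept by the filter, 4, 5 and 1 had every library of the first line below every library of the second, as did 24.1%, 27.6% and 16.9% of the kept genes. Over the 6 genes kept by the filter, the median log2 fold changes were -0.35, -0.52 and 0.04 in the 3 comparisons in this order, and those of all kept genes were -0.02, -0.02 and 0.01.

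**Figure D3:**
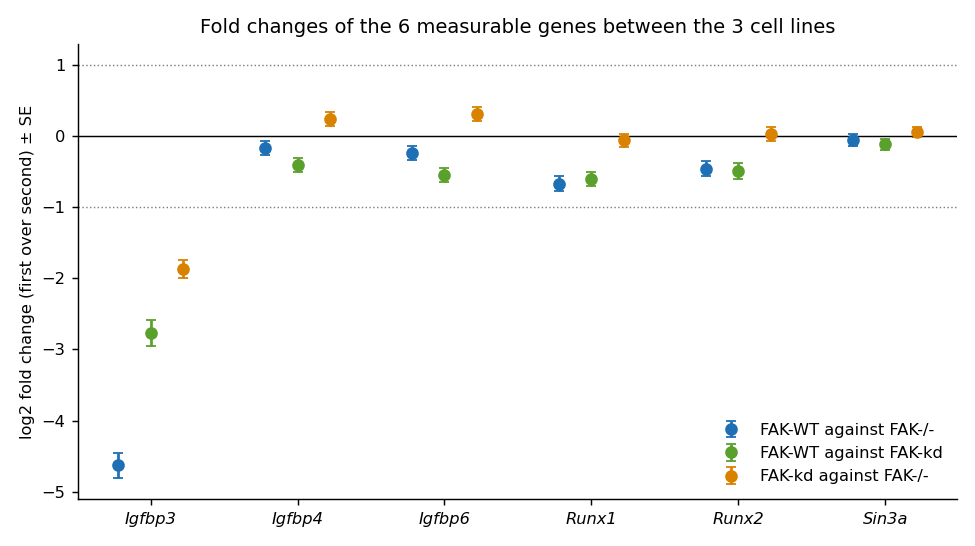
Log2 fold changes (first line over second, ± SE) of the 6 measurable genes in the 3 comparisons; dotted lines mark a log2 fold change of 1 and -1. Only *Igfbp3* lies beyond them, at -4.63, -2.77 and -1.87, and *Runx1* and *Runx2* lie below 0 in both FAK-WT comparisons.

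The IGF pathway around these proteins was read from a list of 22 ligands, receptors, signalling proteins and IGF binding protein proteases, of which 21 matched a row and 14 passed the filter. *Igfbp1* was not analysed here. In FAK-WT against FAK-/- cells, 2 of the 21 were past the threshold with a higher level and 2 with a lower level, in a comparison in which 5.38% of all genes were past it in either direction. The counts were again 2 and 2 in FAK-WT against FAK-kd cells, where 5.26% of all genes were past the threshold. In FAK-kd against FAK-/- cells, 3 had a lower level and 0 a higher level, and 2.01% of all genes were past the threshold. Over the 14 genes kept, the median log2 fold changes were -0.12, -0.07 and -0.14, beside -0.02, -0.02 and 0.01 over all genes kept by the same filter.

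The ligands *Igf1* and *Igf2* had between 0 and 5 counts in every library. The receptor *Igf1r*, through which both ligands signal, had 181 to 202 CPM in FAK-/- cells, 146 to 170 CPM in FAK-kd cells and 135 to 160 CPM in FAK-WT cells. It was lower than in FAK-/- cells in both FAK-WT (log2 fold change -0.36, SE 0.08, adjusted p = 0.00595) and FAK-kd cells (-0.32, SE 0.08, adjusted p = 0.0207), although the latter adjusted p was 0.0729, 0.134 and 0.0665 without FAK-kd replicates 1 and 2 and FAK-/- replicate 2. *Igf2r*, which clears IGF2 from the cell surface, was higher in FAK-kd than in FAK-/- cells (log2 fold change 0.59, SE 0.12, adjusted p = 0.00731, and 0.0743 without FAK-kd replicate 3). No comparison passed for the insulin receptor gene *Insr*, whose log2 fold changes lay between -0.11 and 0.01.

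*Irs1*, which encodes a docking protein for these receptors, had 14.3, 16.9 and 16.9 CPM in FAK-/- cells, 21, 23.7 and 25.4 CPM in FAK-kd cells and 22.7, 37.5 and 32 CPM in FAK-WT cells. It was 2.08-fold higher in FAK-WT-expressing than in FAK-/- cells (log2 fold change 1.06, SE 0.13, adjusted p = 2.72e-05), with no overlap. The log2 fold change was 0.91 without FAK-WT replicate 2 and 0.99 without FAK-/- replicate 1, which is below the minimum of 1. *Socs2*, a feedback inhibitor of growth hormone signalling, had 2.7, 2.41 and 2.43 CPM in FAK-/- cells, 1.11, 1.26 and 1.2 CPM in FAK-kd cells and 0, 0.532 and 0.346 CPM in FAK-WT cells. It followed the order of *Igfbp3* over the lines, with log2 fold changes of -2.54 in FAK-WT against FAK-/- cells (SE 0.34, adjusted p = 6.51e-05), -1.46 in FAK-WT against FAK-kd cells (SE 0.34, adjusted p = 0.00616) and -1.08 in FAK-kd against FAK-/- cells (SE 0.27, adjusted p = 0.0239). The floor of FAK-WT replicate 1, 3.78 CPM, exceeded every *Socs2* level, so the 0 of that library cannot place FAK-WT cells below the other lines. The adjusted p was 0.102 for FAK-WT against FAK-kd cells without FAK-WT replicate 3. For FAK-kd against FAK-/- cells it was 0.0657 without FAK-/- replicate 1 and 0.0761, 0.0756 and 0.098 without FAK-kd replicates 1, 2 and 3, and 0.0941 by DESeq2.

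Among the proteases and stanniocalcins of this list, *Htra1*, *Stc1* and *Stc2* were past the threshold in at least 1 comparison, and *Pappa*, *Pappa2*, *Htra3* and *Adam12* in none. *Pappa*, which encodes the IGFBP protease PAPP-A, had 0 to 5 counts and *Htra3* 0 to 3 counts in each library. *Pappa2* had a log2 fold change of 1.13 in FAK-WT against FAK-/- cells (SE 0.42, adjusted p = 0.0821), and its adjusted p was 0.0475 with filterByExpr and 0.0453 without FAK-WT replicate 1. *Htra1*, a secreted serine protease that can cut IGF binding proteins, had 146, 138 and 153 CPM in FAK-/- cells, 233, 242 and 245 CPM in FAK-kd cells and 40.3, 54.4 and 53.3 CPM in FAK-WT cells. The 3 lines did not overlap, and unlike for *Igfbp3* the FAK-kd level was the highest. *Htra1* was 2.78-fold lower in FAK-WT-expressing than in FAK-/- cells (log2 fold change -1.48, SE 0.08, adjusted p = 6.51e-09), 4.58-fold lower in FAK-WT-expressing than in FAK-kd cells (-2.20, SE 0.08, adjusted p = 1.14e-10) and 1.65-fold higher in FAK-kd than in FAK-/- cells (0.72, SE 0.07, adjusted p = 1.72e-05). *Stc2*, whose product stanniocalcin-2 inhibits PAPP-A, had 14.7, 16.9 and 16.5 CPM in FAK-/- cells, 6.57, 7.52 and 8.4 CPM in FAK-kd cells and 10.1, 16.4 and 17.7 CPM in FAK-WT cells. It was 2.2-fold higher in FAK-WT-expressing than in FAK-kd cells (log2 fold change 1.14, SE 0.13, adjusted p = 1.8e-05) and 2.14-fold lower in FAK-kd than in FAK-/- cells (-1.10, SE 0.12, adjusted p = 4.57e-05).

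The related *Stc1* was low, with 5 to 9 counts in the FAK-/- libraries, 1 to 2 in the FAK-kd libraries, and 2, 30 and 22 in FAK-WT replicates 1, 2 and 3. Its log2 fold change was 4.23 in FAK-WT against FAK-kd cells (SE 0.63, adjusted p = 0.000191), 1.79 in FAK-WT against FAK-/- cells (SE 0.52, adjusted p = 0.0267) and -2.44 in FAK-kd against FAK-/- cells (SE 0.66, adjusted p = 0.0333). The second rose above 0.05 without FAK-/- replicate 3 (0.059), FAK-WT replicate 2 (0.119) or FAK-WT replicate 3 (0.0561). The third rose above 0.05 without any 1 of 7 libraries, with a highest adjusted p of 0.122 without FAK-kd replicate 2. When a library was left out, it stayed below only without FAK-/- replicate 3 or FAK-WT replicate 1. By DESeq2, the adjusted p was 0.079 in FAK-WT against FAK-/- cells and 0.103 in FAK-kd against FAK-/- cells, where it was 0.0777 when only the groups compared were fitted. *Adam12*, a protease known to cut IGFBP3, was named after its values were seen. It was lower in FAK-WT-expressing than in FAK-/- cells by a log2 fold change of -0.99 (SE 0.09, adjusted p = 1.22e-06), just short of the fold minimum. In FAK-kd against FAK-/- cells it was lower by -0.82 (SE 0.08, adjusted p = 1.42e-05).

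**Figure D4:**
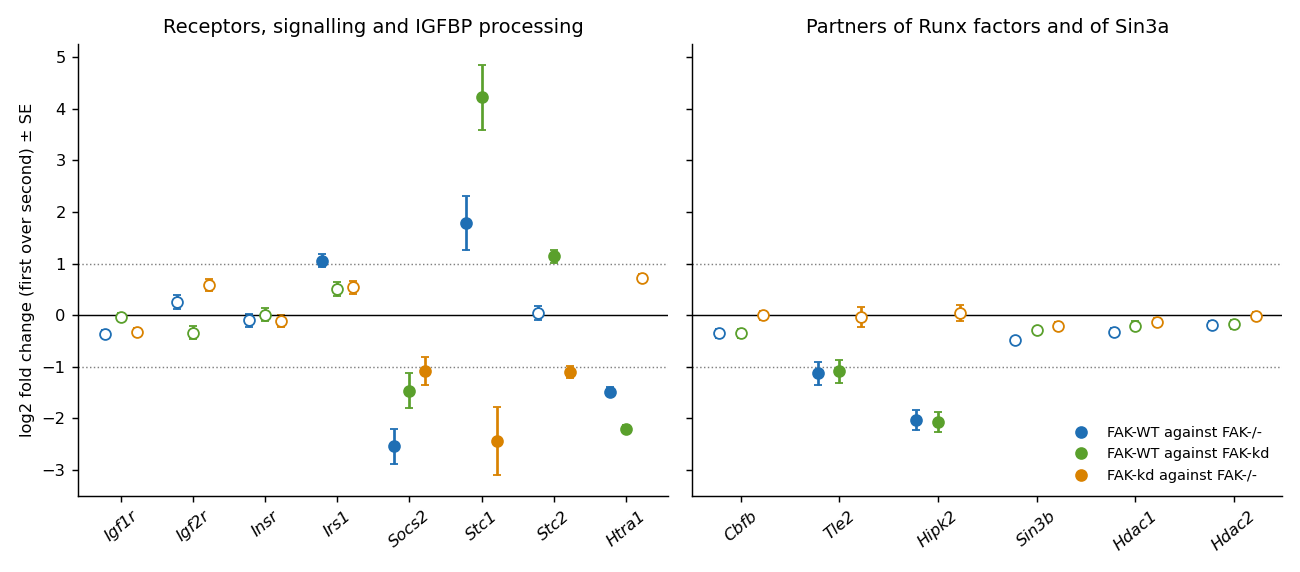
Log2 fold changes (first line over second, ± SE) of named genes of the IGF pathway (left) and of partners of Runx factors and Sin3a (right) in the 3 comparisons; filled points were past the threshold and open points were not, and dotted lines mark 1 and -1. *Socs2* lies below -1 in all 3 comparisons and *Htra1* in both FAK-WT comparisons, whereas the core partners *Cbfb*, *Sin3b*, *Hdac1* and *Hdac2* lie between -1 and 1.

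The partners of Runx factors and of Sin3a were read from a list of 31 genes, all with a row and all kept by the filter. In FAK-WT against FAK-/- cells, 3 of the 31 were past the threshold, each with a lower level. The same number was found in FAK-WT against FAK-kd cells, and the 3 genes were *Cbfa2t3*, *Tle2* and *Hipk2* in both. Of all genes, 3.06% and 2.89% were past the threshold with a lower level in these comparisons. By adjusted p alone, 13 and 8 of the 31 had a lower level and 0 a higher level, beside 9.96% and 10.2% of all genes with a lower level and 8.01% and 7.58% with a higher level. In FAK-kd against FAK-/- cells, 0 were past the threshold with edgeR, beside 2.01% of all genes in either direction. With DESeq2 there were also 0, beside 138 higher and 131 lower among all genes that it tested. By adjusted p alone, 3 had a lower level with edgeR, beside 3.88% of all genes. At an unadjusted p under 0.05, 6 were lower and 3 higher, beside 10.3% and 10.2% of all genes. The median log2 fold changes over the 31 were -0.26, -0.18 and -0.01, beside -0.02, -0.02 and 0.01 over all genes kept by the filter. The shares above are of all 19044 genes, which include genes that the filter removed, whereas all 31 partners were kept. Fitted alone, the 12235 kept genes had 535 and 521 past the threshold with a lower level in the 2 FAK-WT comparisons. Lower by adjusted p alone were 1918 and 1936 of these, and 1662 and 1607 were higher.

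*Hipk2*, a kinase that phosphorylates Runx proteins, had 10.8, 12.5 and 12.5 CPM in FAK-/- cells, 10.5, 12.4 and 14 CPM in FAK-kd cells and 0, 3.11 and 2.91 CPM in FAK-WT cells. All FAK-WT libraries lay below all others, although the 0 counts of FAK-WT replicate 1 allow a level of up to 3.78 CPM by the floor of 3 counts. The level was 4.08-fold lower than in FAK-/- cells (log2 fold change -2.03, SE 0.19, adjusted p = 2.4e-06) and 4.2-fold lower than in FAK-kd cells (-2.07, SE 0.19, adjusted p = 2e-06). *Tle2*, which encodes a Groucho-type co-repressor, was 2.19-fold lower than in FAK-/- cells (log2 fold change -1.13, SE 0.22, adjusted p = 0.00163) and 2.14-fold lower than in FAK-kd cells (-1.09, SE 0.22, adjusted p = 0.00198). Its log2 fold change against FAK-/- cells was -0.89 without FAK-/- replicate 3, -0.94 without FAK-WT replicate 3, -0.93 with offsets for GC content and -0.99 with these offsets and the replicate block, each below the minimum in size. Against FAK-kd cells it was -0.90 without FAK-WT replicate 3 and -0.99 without FAK-kd replicate 2. *Cbfa2t3*, a co-repressor of the family that is fused to RUNX1 in leukaemia, had 23, 12 and 27 counts in the FAK-/- libraries, 31, 48 and 36 in the FAK-kd libraries and 0, 1 and 0 in the FAK-WT libraries. The ratio of the summed levels was 50.3 for FAK-/- over FAK-WT cells (exact 95% interval of counting error 8.71 to 2020) and 83.3 for FAK-kd over FAK-WT cells (14.6 to 3316), with edgeR adjusted p-values of 9.52e-05 and 1.85e-05.

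Differences in the core partners stayed within the fold minimum. *Cbfb*, the obligate partner of Runx factors, had 125 to 141 CPM in FAK-WT cells and 147 to 185 CPM in the other lines. It was lower in FAK-WT-expressing than in FAK-/- cells (log2 fold change -0.35, SE 0.09, adjusted p = 0.014) and than in FAK-kd cells (-0.35, SE 0.09, adjusted p = 0.0132). The adjusted p against FAK-/- cells was 0.0691, 0.066 and 0.0776 without FAK-/- replicates 1 and 2 and FAK-WT replicate 2. Against FAK-kd cells it was 0.0804 and 0.0817 without FAK-kd replicate 1 and FAK-WT replicate 2. *Sin3b*, the paralog of *Sin3a*, was lower in FAK-WT-expressing than in FAK-/- cells (log2 fold change -0.49, SE 0.07, adjusted p = 0.000101) and than in FAK-kd cells (-0.29, SE 0.07, adjusted p = 0.00737). The latter adjusted p was 0.0552, 0.0508 and 0.0526 without FAK-kd replicate 2 and FAK-WT replicates 2 and 3. The histone deacetylase gene *Hdac1* was lower in FAK-WT-expressing than in FAK-/- cells (log2 fold change -0.33, SE 0.08, adjusted p = 0.00727). Its paralog *Hdac2* did not pass in any comparison, with log2 fold changes between -0.19 and -0.01.

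A list of 8 skeletal genes known as targets of Runx2 was examined because *Runx2* was expressed. *Spp1*, which encodes osteopontin, was the only 1 of the 8 kept by the filter, was named after its values were seen and had 4866 to 7877 CPM over the 9 libraries. It was lower in FAK-WT-expressing than in FAK-/- cells (log2 fold change -0.33, SE 0.09, adjusted p = 0.0156) and than in FAK-kd cells (-0.47, SE 0.09, adjusted p = 0.00133). The former adjusted p was 0.0607, 0.0548 and 0.0859 without FAK-/- replicates 1 and 2 and FAK-WT replicate 2. *Alpl*, which encodes alkaline phosphatase, had 0, 29 and 12 counts in FAK-WT replicates 1, 2 and 3, 2 to 6 in the FAK-kd libraries and 4 to 6 in the FAK-/- libraries. It was the only 1 of the 8 past the threshold, in FAK-WT against FAK-kd cells (log2 fold change 2.25, SE 0.60, adjusted p = 0.0156), with overlap, in a comparison in which 5.26% of all genes were past it. The adjusted p was 0.269 without FAK-WT replicate 2, and 0.0586 and 0.0673 without FAK-kd replicates 1 and 3. By DESeq2, *Alpl* had an adjusted p of 0.156. In FAK-WT and in FAK-kd against FAK-/- cells, 0 of the 8 were past the threshold by edgeR and 0 by DESeq2, beside 5.38% and 2.01% of all genes by edgeR. At an unadjusted p under 0.05 there were 4 and 1 of the 8, beside 29% and 20.4% of all genes.

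The genes whose pattern over the 9 libraries was most like that of *Igfbp3* were ranked by the root mean square difference of log2 CPM, each centred on its own mean, among the 12235 genes kept by the filter. They were *Plch1* (0.411), *Fbln2* (0.455), *Sfrp1* (0.579), *Agtr2* (0.599) and *Gm7694* (0.628). *Sfrp1*, which encodes a secreted Wnt inhibitor, was the most abundant of these, with mean levels of 80.9, 57.6 and 4.98 CPM in FAK-/-, FAK-kd and FAK-WT cells. *Agtr2*, an angiotensin receptor gene, had 9.76, 3.36 and 0.838 CPM. The mean levels of *Fbln2*, which encodes a matrix protein, were 1.48, 0.663 and 0.0281 CPM. The last of these lay below the floor of 3 counts in every library, and *Plch1* was at 0 counts in every FAK-WT library. These genes were chosen for this pattern, so no test is given.

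Summed levels of markers of other cell types are given for each line, and their part in these results was not tested. The 5 fibroblast markers with a row summed to 31.8 to 36.3 CPM in the FAK-/- libraries, 25.1 to 36.5 in the FAK-kd libraries and 16.4 to 17.6 in the FAK-WT libraries, mostly from *Pdgfra*, which was past the threshold with a lower level in FAK-WT-expressing than in FAK-/- cells (log2 fold change -1.44, SE 0.16, adjusted p = 1.35e-05) and than in FAK-kd cells (-1.11, SE 0.16, adjusted p = 0.000157). *Col1a2* and *Dcn*, also of this list, were past it with a higher level in FAK-kd and in FAK-WT against FAK-/- cells, respectively. The 4 immune markers summed to 3.08 to 3.65, 1.53 to 2.66 and 0 to 2.29 CPM in the same order, and *Itgam* had 0 to 4 and *Cd79a* 0 to 10 counts. In each comparison 0 of the 4 were past the threshold. Of all genes, 5.38% and 5.26% were past it in FAK-WT against FAK-/- and FAK-kd cells, and 2.01% in FAK-kd against FAK-/- cells. The 3 endothelial markers summed to 0.3 to 0.473, 0.21 to 0.322 and 1.26 to 2.05 CPM, of which *Cdh5* was past the threshold with a higher level in FAK-WT against FAK-/- cells (log2 fold change 3.42, SE 0.53, adjusted p = 0.000272) and against FAK-kd cells (adjusted p = 1.21e-05), whose libraries had 0 to 2 counts of it. Epithelial markers summed to 0.197 to 0.384, 0.937 to 1.74 and 0.506 to 1.26 CPM, and *Krt8* was past the threshold with a higher level in FAK-kd against FAK-/- cells (log2 fold change 2.13, SE 0.43, adjusted p = 0.00548). The FAK-WT ends of 0 CPM (immune) and 1.26 CPM (endothelial and epithelial) came from FAK-WT replicate 1. In that library 1 count was 1.26 CPM and the floor was 3.78 CPM, so these ends are not measured levels.

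*Igfbp3* kept its order over the lines under every alternative tried. Across 18 other ways of processing, which included another tool, other scalings, a GC correction and leaving out each library in turn, its log2 fold change ranged from -5.06 to -4.28 in FAK-WT against FAK-/- cells, from -3.19 to -2.41 in FAK-WT against FAK-kd cells and from -1.94 to -1.76 in FAK-kd against FAK-/- cells. All were past the threshold, also when tested against a log2 fold change of 1 (glmTreat), where the adjusted p-values were 1.49e-09, 1.98e-06 and 0.000217. The outer values of the FAK-WT comparisons came from leaving out FAK-WT replicate 3 or 2, whose levels of 1.67 and 0.958 CPM were the highest and lowest of that line.

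**Figure D5:**
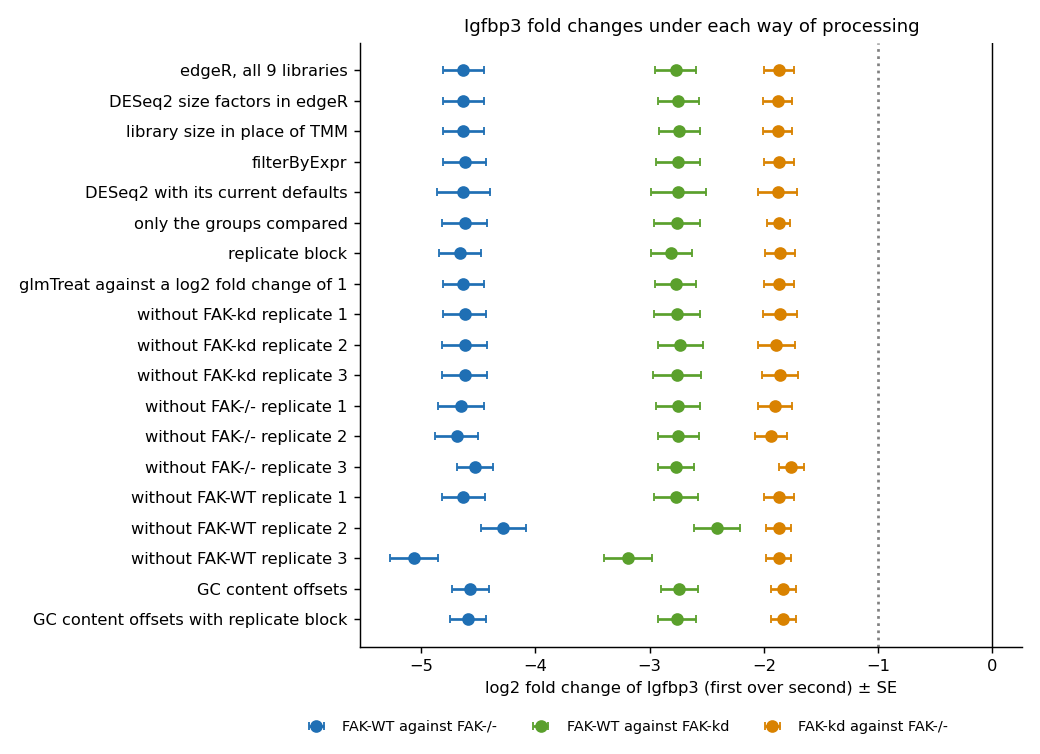
Log2 fold changes of *Igfbp3* (first line over second, ± SE, x axis) in the 3 comparisons under each way of processing (y axis); the dotted line marks a log2 fold change of -1. All values lie below -1, and the 3 comparisons stay apart throughout.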

How the data were processed

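Counts were analysed from 9 RNA-seq libraries of mouse SCC cells, grouped by the cell line and numbered by the replicate in the labels. The authors quantified paired-end reads with kallisto (0.43.1 in the submitters' processing notes, which name GRCm38 and mm10) and took gene totals with tximport. They deposited the estimated counts as whole numbers that were not scaled to library size. The transcriptome release is not given in the sources used here, and transcript lengths are not in the table, so no length correction was entered.

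Of 19044 identifiers, 18856 were matched to a symbol. Counts were tested with edgeR 4.0.16 in R 4.3.3 (TMM, glmQLFit and glmQLFTest, 1 fit of all genes and 9 libraries, no covariates), with Benjamini-Hochberg adjustment over all genes. SE was taken as the log2 fold change over the square root of F. The study's methods use DESeq2, which was an alternative here (1.42.0). The other alternatives were size factors of DESeq2 within edgeR, no TMM scaling, filterByExpr, separate fits for each pair of lines, replicate number as a block, glmTreat, leaving out each library in turn and, chosen after the data were seen, lowess offsets for GC content with and without the block. The steps were tested on simulated data.

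The genes and lists were chosen with earlier results of these data known. From the lists, *Igf1r*, *Igf2r*, *Insr*, *Igfbp1*, *Cbfb*, *Sin3b*, *Hdac1*, *Hdac2* and every gene past the threshold in at least 1 comparison were to be named, together with the 5 genes most like *Igfbp3* (log2 CPM, prior count 2). List genes named outside this rule, after their values were seen, were *Igf1*, *Igf2*, *Adam12*, *Pappa*, *Pappa2*, *Htra3* and *Spp1*, and single markers of other cell types. Gene positions and transcript lengths came from GENCODE (GRCm38). The share of 31-base words of transcripts that other genes also hold was 5.78% for *Igfbp4* and at most 1.36% for the other genes. Depth set the precision: a count of 1 has a counting error of 100%, and a count of 1034 of 3.11%.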

Additional observations from a re-analysis of the deposited data

How the results depend on the processing

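The counts of the 9 genes past the threshold, 1 in each comparison, were 1 under each alternative. Of the 9 genes at an adjusted p of 0.05 or below in FAK-kd against FAK-/- cells, 1 became 2 with DESeq2, 3 with the GC offsets and 3 with the GC offsets and the replicate block, and between 1 and 3 when a library was left out, where 3 came from leaving out FAK-/- replicate 3. Calls among all genes also changed with the setting. In this comparison 756 were higher and 738 lower in the main edgeR fit, and 707 and 704 with DESeq2. They were 1112 and 1056 with the GC offsets and 1045 and 951 with the offsets and the block. Without FAK-/- replicate 3 they were 1195 and 1016. The IGF pathway count fell from 4 to 2 in both FAK-WT comparisons and from 3 to 0 in FAK-kd against FAK-/- cells with glmTreat, which asks for a fold change beyond the minimum. It was 1 with DESeq2 in FAK-kd against FAK-/- cells. When a library was left out, this count was 3 to 5 and 3 to 4 in the FAK-WT comparisons and 1 to 3 in FAK-kd against FAK-/- cells, with 1 without FAK-kd replicate 1, 2 or 3 or FAK-/- replicate 1. The count of Runx and Sin3 partners, 3 in both FAK-WT comparisons, was 2 in both with glmTreat. In FAK-WT against FAK-/- cells it was also 2 with the GC offsets, with and without the replicate block, and without FAK-/- replicate 3 or FAK-WT replicate 3, and in FAK-WT against FAK-kd cells without FAK-kd replicate 2 or FAK-WT replicate 3. The skeletal count, 1 in FAK-WT against FAK-kd cells, was 0 with filterByExpr, which leaves *Alpl* out, 0 with DESeq2 and glmTreat, 2 when only the groups compared were fitted, and 0 to 2 when a library was left out. In FAK-WT against FAK-/- cells it went from 0 to 2 with the GC offsets and was 0 to 1 when a library was left out, with 1 without FAK-/- replicate 3. Beyond these, the causes were not tested.

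Reversed directions were found only for log2 fold changes that did not pass. For *Igfbp6* in FAK-WT against FAK-/- cells the value was 0.01 with the GC offsets and the replicate block. In FAK-kd against FAK-/- cells, *Runx1* ranged from -0.12 to 0.02 when a library was left out, with 0.02 without FAK-kd replicate 1, and *Runx2* from -0.04 to 0.14, at -0.01 without FAK-kd replicate 3 or FAK-/- replicate 2 and at -0.04 without FAK-/- replicate 1.

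Pairing of the libraries by replicate number was not detected. Deviations from the line means gave a mean Pearson r across genes of -0.00768 in the 9 pairs with the same number (-0.0464 to 0.0453) and 0.00353 in the 18 others. With the replicate block, *Igfbp3* had log2 fold changes of -4.66, -2.81 and -1.86. *Irs1* was then at 0.99 in FAK-WT against FAK-/- cells, *Stc1* in FAK-kd against FAK-/- cells had an adjusted p of 0.0658, and *Adam12* in FAK-WT against FAK-/- cells was at -1.02, past the minimum. The depth of FAK-WT replicate 1 limits what it can show below 3.78 CPM.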
